A study of Mus musculus with 15 samples.

Results

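Ductal genes were followed through all 15 RNA-Seq libraries of the series, because such genes mark a pancreas in which acinar cells take on duct features. The 9 genes are the keratins Krt19, Krt7, Krt8 and Krt18, the transcription factors Sox9 and Onecut1, the chloride channel gene Cftr, the mucin gene Muc1 and the secreted phosphoprotein gene Spp1. They were chosen by name, though with earlier results of these data known, out of 49585 genes listed for the HC, KC and KMC libraries. All 9 are also among the 15175 genes listed for the MC libraries. Each passed the filter on low counts in every comparison.

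Pancreata of C57BL/6 mice were sequenced, with RNA of 3 mice pooled for each library. The study asked how HPK1, a serine/threonine kinase, and M46, its kinase-dead form, act on pancreatic injury and on pancreatic tumorigenesis. In both transgenes a floxed GFP-stop cassette precedes the cDNA, and Bac-cre, a tamoxifen-inducible Cre under the acinar elastase I promoter, removes the stop. Endogenous HPK1 remains in all groups, and the promoter directs Cre to acinar cells. MC mice carried M46 (labelled HPK1-M46 transgenic, 2 months old, n = 3 libraries) and were compared with 3 control libraries labelled B control of the same age. HC mice carried HPK1 (labelled HPK1/B, 4 months old, n = 3) and were compared with 2 libraries labelled WT of the same age, so these controls are not labelled as carrying Cre. According to the study's text, MC and HC mice and their controls were given cerulein, which overdrives acinar secretion and inflames the pancreas. Its methods, however, give control littermates PBS, and the labels name no treatment, so a transgene and cerulein cannot be told apart if these controls went without it. KC mice were of a tumour-prone genotype with Cre (15 months old, n = 2), and KMC mice carried M46 in addition (9 months old, n = 2). The text describes the KMC and KC samples as tumours, whereas the labels say pancreas.

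In the normal pancreas, acinar cells make digestive enzymes and the duct lining carries them to the gut and adds bicarbonate. Duct cells keep keratin filaments, in which a type I keratin (Krt18, Krt19) pairs with a type II keratin (Krt8, Krt7), and their identity depends on factors such as Sox9 and Onecut1. In acinar-to-ductal metaplasia, injured acinar cells lose enzymes and gain such duct genes. Krt8 and Krt18 are also made by acinar cells, Krt19 and Muc1 also by stomach and gut epithelium, and Spp1 also by macrophages.

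Libraries held 29766575 to 38745907 counts. Levels are given in CPM (counts scaled to a common library total), and a gene with 0 counts could be at up to 0.0774 to 0.101 CPM, which 3 counts make. The least counted member value was 29 counts, for Cftr in KC 2. The labelled tissue was checked with 28 acinar genes, which took 36.5 to 55.7% of all counts in the MC experiment (27 of them listed) and 24.6 to 68.5% in KC and KMC, but only 5.74 to 8.97% in the libraries labelled HC and their controls. Msln, a gene of the mesothelium, was at 70.1 to 291 CPM in the HC experiment and at 3.41 to 8.46 CPM in the other libraries. Map4k1, which encodes HPK1, was at 5.05 to 7.92 CPM in the libraries labelled HC and at 15.4 and 11.5 CPM in their controls, against the label. Ptprc, a gene of leukocytes, which also express Map4k1, was lower in these libraries too, at 35.0 to 62.5 CPM against 116 and 72.5 CPM, and its part in the Map4k1 level was not tested. The study's text does not give the species of the HPK1 and M46 cDNAs. Whether their reads were counted as Map4k1 was not tested. Every direction given for HC below is therefore that of the libraries labelled HC. Map4k1 was higher in each MC and KMC library than in any of its controls, and so was Ptprc. Ptprc was at 38.3 to 52.4 CPM in MC against 8.40 to 19.8 CPM in its controls. In KMC it was at 33.4 and 58.6 CPM against 3.13 and 10.1 CPM in KC. The part of leukocytes in these Map4k1 levels was not tested. Xist was at 0.761 CPM in HC 3 and at 579 to 928 CPM in the other libraries of the HC experiment. It was at 0.680 and 0.348 CPM in KC against 405 and 306 CPM in KMC, so sex, age and M46 cannot be told apart between KC and KMC.

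The keratin members lie on 2 chromosomes of GRCm38. Krt19 (ENSMUSG00000020911) is on chromosome 11 from 100140810 to 100148665, minus strand. Krt7 (ENSMUSG00000023039) is on chromosome 15 from 101411043 to 101430313, plus strand. Krt8 (ENSMUSG00000049382) at 101996698 to 102004482, minus strand, and Krt18 (ENSMUSG00000023043) at 102028180 to 102032027, plus strand, are on chromosome 15 too and point away from each other with 23698 bases between their starts. Sox9 (ENSMUSG00000000567) is on chromosome 11 from 112782224 to 112787760, and Onecut1 (ENSMUSG00000043013) on chromosome 9 from 74861921 to 74891781. Cftr (ENSMUSG00000041301) is on chromosome 6 from 18170687 to 18322768. Muc1 (ENSMUSG00000042784) is on chromosome 3 from 89229057 to 89233381, and Spp1 (ENSMUSG00000029304) on chromosome 5 from 104435118 to 104441050. All 9 are protein coding, and these 5 are on the plus strand.

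RefSeq promoters of GRCm38.p6, each from 250 bases before to 50 after a gene's start, were matched for 7 of the 9 genes, with 2 for Spp1. The table used holds none for Krt19 and Sox9. Shown 5′ to 3′ are those of the neighbours Krt8 (chr15:102004293-102004592, minus strand) and Krt18 (chr15:102027966-102028265, plus strand), of Krt7 (chr15:101412153-101412452, plus strand), which differed most in KMC, and of Muc1 (chr3:89228806-89229105, plus strand), which differed most in HC. Capitals mark matches, on both strands, to the TATA box TATAAA, the GC box GGGCGG, the Onecut core ATCAAT, the SOX core ACAAAG or the AP-1 site TGANTCA, and adjoining capitals are overlapping or abutting matches.
Krt8: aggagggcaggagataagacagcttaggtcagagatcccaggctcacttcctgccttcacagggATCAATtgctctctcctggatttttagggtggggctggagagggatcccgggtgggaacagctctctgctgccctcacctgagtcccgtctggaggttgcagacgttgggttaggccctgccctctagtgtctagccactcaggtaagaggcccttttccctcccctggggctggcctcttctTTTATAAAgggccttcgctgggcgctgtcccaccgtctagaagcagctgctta
Krt18: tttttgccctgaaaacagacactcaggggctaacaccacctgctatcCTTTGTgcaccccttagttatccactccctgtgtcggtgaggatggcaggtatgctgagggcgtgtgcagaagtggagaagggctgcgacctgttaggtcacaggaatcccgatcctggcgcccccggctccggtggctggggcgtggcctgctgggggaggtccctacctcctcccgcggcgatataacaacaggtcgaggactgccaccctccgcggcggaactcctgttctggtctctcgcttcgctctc
Krt7: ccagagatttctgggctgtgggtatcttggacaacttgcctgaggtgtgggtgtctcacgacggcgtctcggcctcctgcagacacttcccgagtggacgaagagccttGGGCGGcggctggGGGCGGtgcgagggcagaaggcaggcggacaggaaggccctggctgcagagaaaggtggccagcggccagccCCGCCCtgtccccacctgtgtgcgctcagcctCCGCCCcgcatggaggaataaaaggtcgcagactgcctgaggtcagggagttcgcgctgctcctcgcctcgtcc
Muc1: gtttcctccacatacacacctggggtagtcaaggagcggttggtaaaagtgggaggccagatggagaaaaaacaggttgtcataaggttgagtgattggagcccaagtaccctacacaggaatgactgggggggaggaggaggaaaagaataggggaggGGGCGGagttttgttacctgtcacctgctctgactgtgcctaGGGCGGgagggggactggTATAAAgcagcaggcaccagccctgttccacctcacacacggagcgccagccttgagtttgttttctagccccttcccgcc

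Muc1 had TATAAA at -31 and GGGCGG at -91 and -49, counted from the RefSeq start, while Krt7 had 4 GGGCGG and no TATAAA. Krt8 had the only ATCAAT, at -186, and its TATAAA overlaps on both strands at -3 and -1 (GENCODE places the Krt8 start further upstream in the window). Krt18 had 1 ACAAAG, at -203 on the other strand. Among 32851 promoters of the same length, TATAAA was in 13.6%, GGGCGG in 35.7%, ATCAAT in 7.54%, ACAAAG in 18.7% and TGANTCA in 7.81%. Of the 8 member promoters, 3 held TATAAA, 4 GGGCGG, 1 ATCAAT, 3 ACAAAG and 0 TGANTCA. The partners Krt8 and Krt18 thus shared none of these 5 letter strings, and a match is only a description of the letters in this window.

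The 9 genes had no common direction. In MC, all 4 keratins and Muc1 had log2 fold changes below 0 and the other 4 genes above 0, and MC and control libraries overlapped for all 9. In the libraries labelled HC, keratins, Sox9 and Muc1 were above every control and Spp1 was below every control. In KMC with TMM scaling, Krt7 and Spp1 were above every KC library and Muc1 and Krt18 below, while Sox9, Onecut1 and Krt8 stood near the KC level. A gene was called where edgeR's quasi-likelihood F test gave a Benjamini-Hochberg adjusted p up to 0.05 over all genes tested and the groups differed by 1 or more on the log2 scale. Log2 fold changes are those of edgeR with TMM scaling, and SE is their standard error.

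**Figure D1:**
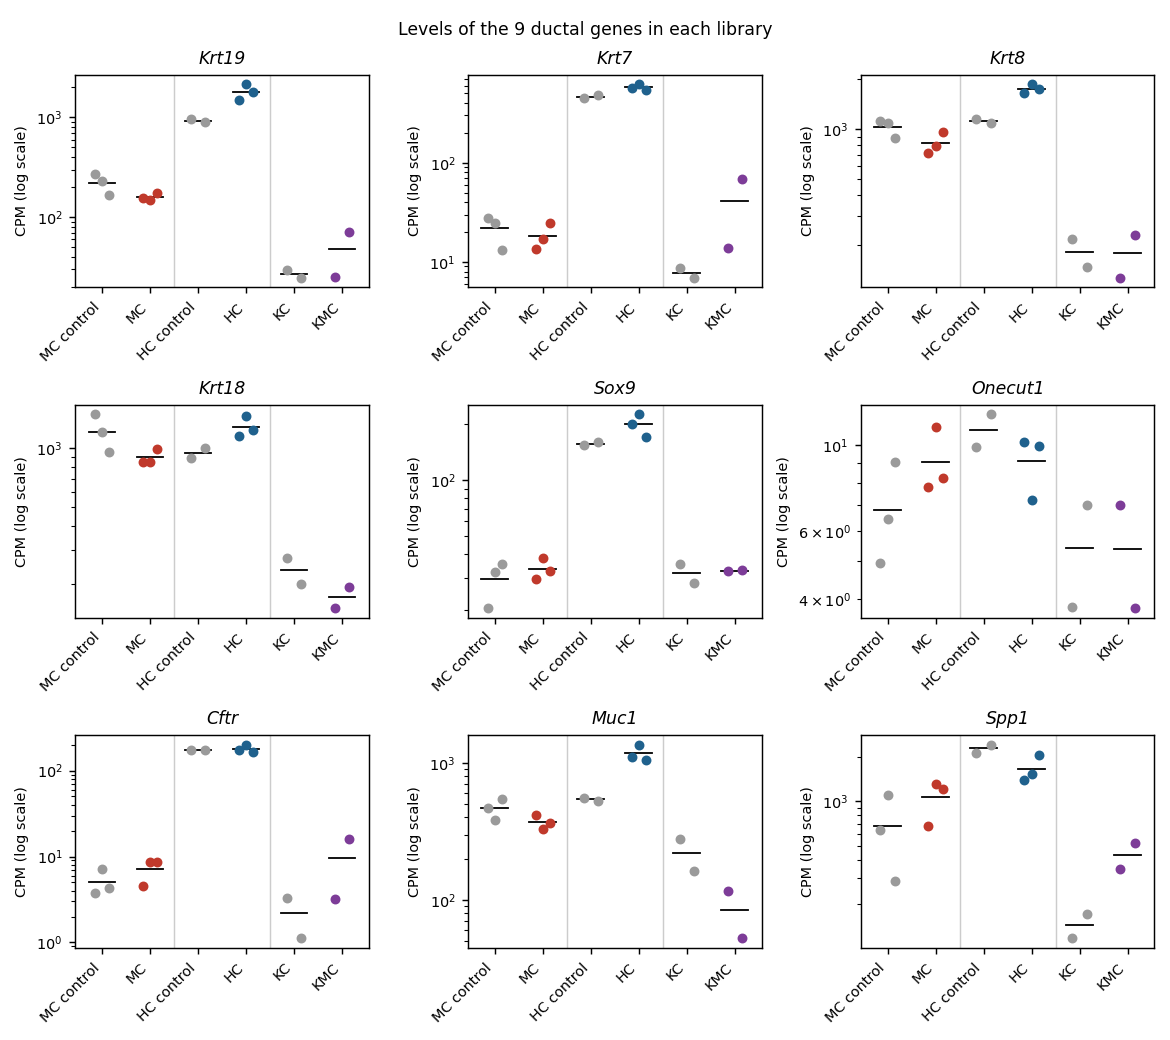
CPM of each of the 9 genes on a log axis, scaled by TMM within each experiment. Points are libraries, black lines group means, grey points control groups, and vertical lines separate the 3 experiments. Krt7 and Cftr of KMC 2, at 68.5 and 15.9 CPM, sit apart from KMC 1 at 13.8 and 3.17 CPM.

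By that rule 0 of 9 members were called in MC, where 0% of 13902 genes were called. With DESeq2, which called 3.26% of all genes, 0 were called as well, and 1 (Krt19) had an unadjusted edgeR p under 0.05, against 14.7% of all genes. In MC 0 members were higher without overlap, against 10.9% of all genes, and 0 lower, against 9.89%. Of the 9, 4 had a log2 fold change above 0 in MC, 7 in HC and 5 in KMC, against 46.9%, 49.8% and 51.3% of all genes. In HC 0 members were called, against 0.565% of 18407 genes, with 5 at an unadjusted p under 0.05 (15.9% of all genes) and 1 (Muc1) called by DESeq2 (2.54% of all genes). The HC groups did not overlap for 6 members that were higher, against 17.5% of all genes, and for 1 that was lower, against 16.1%. In KMC 0 were called, against 0.0191% of 15733 genes, with 4 at an unadjusted p under 0.05 (25.6% of all genes). DESeq2 called 4 in KMC (Krt7, Cftr, Muc1 and Spp1), where it called 13.7% of all genes. The KMC groups did not overlap for 2 members that were higher, against 34.4% of all genes, and for 2 that were lower, against 30.9%, so the KMC count is near the background. The median log2 fold change of the 9 members was -0.26 in MC, 0.34 in HC and 0.04 in KMC, beside -0.02, 0.00 and 0.03 over all genes tested. Without HC 3, whose Xist level stood apart, the HC log2 fold change was 0.96 for Krt19, 0.63 for Krt8, 0.42 for Sox9, 1.17 for Muc1 and -0.65 for Spp1, with 0 members called.

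**Figure D2:**
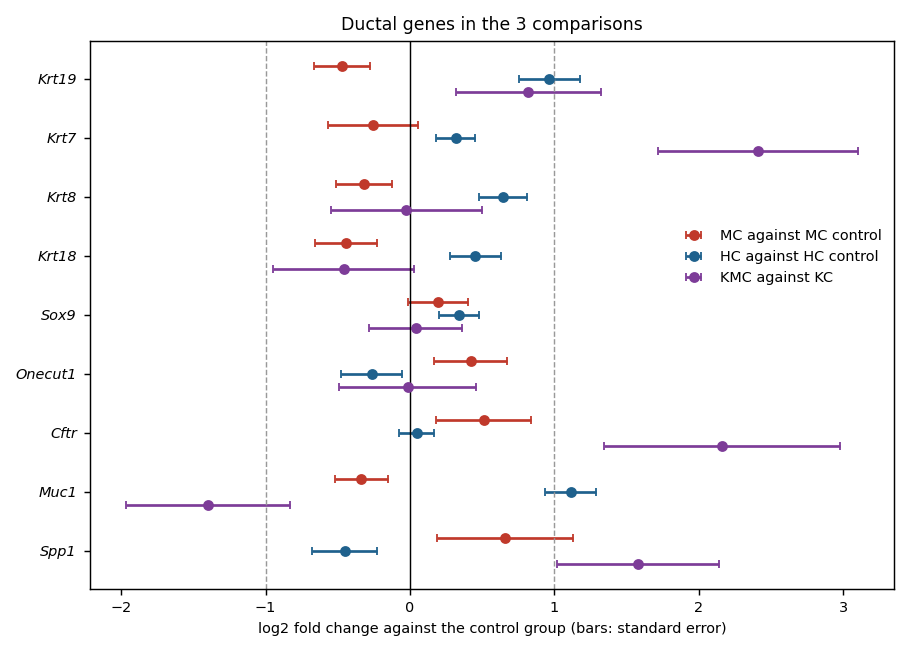
Log2 fold changes of the 9 genes against their own control group, from edgeR with TMM scaling. Points are estimates, bars 1 standard error, and dashed lines the size needed for a call. KMC bars are the widest for every gene, up to 0.82 for Cftr, and Krt19 and Muc1 lie on opposite sides of 0 in MC and HC.

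Krt19 is the keratin used to stain ducts and metaplastic acini. It was at 268, 231 and 166 CPM in the MC controls and at 155, 148 and 176 CPM in MC. MC 1 and MC 2 were below every control, and the groups overlap at MC 3 and control 3. On the log2 scale the difference was -0.47 (SE 0.19, edgeR adjusted p = 0.326). In the HC experiment it was at 959 and 895 CPM in controls and at 1496, 2150 and 1781 CPM in HC, all 3 above both controls. This 1.95-fold difference (log2 0.96, SE 0.21) had an adjusted p of 0.113 from edgeR. DESeq2 gave 2.73e-05 with a log2 fold change of 0.96, under the size for a call. In KC it was at 29.7 and 24.8 CPM and in KMC at 25.1 and 71.0 CPM, so that KMC 2 alone stood above KC. The log2 fold change of 0.82 (SE 0.50, edgeR adjusted p = 0.328) was -0.10 without KMC 2. By total counts both KMC libraries, at 31.2 and 154 CPM, were above KC at 14.5 and 18.9 CPM.

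Krt7, a type II keratin of duct cells, was at 27.7, 24.9 and 13.3 CPM in the MC controls. In MC it was at 13.4, 17.2 and 24.5 CPM, and the groups overlap. Its log2 fold change was -0.26 (SE 0.31, edgeR adjusted p = 0.690). It was at 446 and 478 CPM in the HC controls and at 570, 619 and 537 CPM in HC, all 3 higher. That difference was small, at log2 0.32 (SE 0.13, edgeR adjusted p = 0.320). In KC it was at 8.64 and 6.92 CPM and in KMC at 13.8 and 68.5 CPM. Both KMC libraries were above both KC libraries, and KMC 2 was 4.97 times as high as KMC 1. Expressed as log2, the difference was the largest of any member, 2.41 (SE 0.69, edgeR adjusted p = 0.113, 0.00298 from DESeq2). It fell to 0.85 without KMC 2 and was 3.13 without KMC 1, where KMC is the single library KMC 2.

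Krt8 and Krt18 pair with each other and are the most abundant keratins of simple epithelia, acini included. Krt8 was at 1114, 1089 and 888 CPM in the MC controls and at 720, 792 and 967 CPM in MC. Krt18 was at 1497, 1209 and 960 CPM in the controls and at 855, 855 and 988 CPM in MC. Both were lower in MC on average but overlapped through MC 3, with log2 fold changes of -0.32 (SE 0.20) and -0.44 (SE 0.22) and adjusted p of 0.444 and 0.376 from edgeR. In the HC experiment Krt8 was at 1159 and 1090 CPM in controls and at 1652, 1869 and 1745 CPM in HC. Krt18 was at 891 and 1005 CPM in controls and at 1165, 1477 and 1249 CPM in HC. All HC libraries were above both controls for both genes, with log2 fold changes of 0.64 (SE 0.17) and 0.45 (SE 0.18) and adjusted p of 0.154 and 0.294 from edgeR. In KC and KMC, Krt8 was at 217 and 146 CPM against 126 and 231 CPM, which overlap. Krt18 was at 273 and 201 CPM in KC against 151 and 194 CPM in KMC, both lower, whereas by total counts it was at 133 and 153 CPM in KC against 187 and 420 CPM in KMC, both higher. The log2 fold changes were -0.03 (SE 0.52) and -0.46 (SE 0.49), with adjusted p of 0.980 and 0.573 from edgeR.

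Ratios of keratins within a library do not depend on scaling. Per kb of the annotated principal transcript, Krt19 stood to Krt18 at 0.163, 0.174 and 0.158 in the MC controls and at 0.165, 0.158 and 0.163 in MC. This ratio of levels was thus nearly the same in all 6 libraries, although both keratins varied between them. It was 0.981 and 0.813 in the HC controls and 1.17, 1.33 and 1.3 in HC, which do not overlap. It was 0.0994 and 0.112 in KC and 0.152 and 0.334 in KMC, which do not overlap either. Krt8 to Krt18 was at 0.546 to 0.719 in the MC experiment, 0.796 to 1.04 in the HC experiment and 0.535 to 0.874 in KC and KMC. The count of Krt7 per count of Krt19 was 0.291 and 0.280 in KC and 0.550 and 0.965 in KMC, higher in both, while it was 0.465 and 0.534 in the HC controls and 0.381, 0.288 and 0.301 in HC, lower in all 3.

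Sox9, the transcription factor that maintains duct cells and is induced in metaplastic acini, was at 20.6, 32.0 and 35.4 CPM in the MC controls and at 29.5, 38.3 and 32.6 CPM in MC. The groups overlap, and the log2 fold change was 0.19 (SE 0.21, edgeR adjusted p = 0.657). It was at 154 and 160 CPM in the HC controls and at 201, 225 and 171 CPM in HC, all higher. The log2 fold change there was 0.34 (SE 0.14, edgeR adjusted p = 0.312). In KC it was at 35.5 and 28.2 CPM and in KMC at 32.5 and 32.9 CPM. Both KMC values lay between those of KC, at a log2 difference of 0.04 (SE 0.32, edgeR adjusted p = 0.949).

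Onecut1, a factor of pancreatic progenitors and ducts that acts upstream of Sox9 in development, had the lowest or second lowest level per kb of the 9 genes in every group. It was at 4.96, 6.43 and 9.03 CPM in the MC controls and at 7.77, 11.2 and 8.24 CPM in MC, and at 9.89 and 12 CPM in the HC controls and 10.2, 7.21 and 9.95 CPM in HC. In KC it was at 3.81 and 7.0 CPM and in KMC at 7.0 and 3.79 CPM. The groups overlap in all 3 comparisons. The log2 fold changes were 0.42 (SE 0.25) in MC, -0.26 (0.21) in HC and -0.02 (0.47) in KMC, with adjusted p of 0.439, 0.607 and 0.987 from edgeR. With TMM scaling, Sox9 in HC was the only case in which the groups of either duct factor did not overlap. By total counts Sox9 was at 17.3 and 21.5 CPM in KC and at 40.4 and 71.2 CPM in KMC, and Onecut1 at 1.85 and 5.34 CPM in KC and at 8.70 and 8.21 CPM in KMC. Both were higher in each KMC library on that scale, on which the median of all genes was higher too, and Onecut1 did not overlap between MC (7.34 to 13.9 CPM) and its controls (4.39 to 7.26 CPM).

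Cftr encodes the chloride and bicarbonate channel of the apical duct membrane. It was at 3.77, 7.11 and 4.36 CPM in the MC controls and at 4.56, 8.60 and 8.57 CPM in MC, with 2 MC libraries above every control. The log2 fold change was 0.51 (SE 0.33, edgeR adjusted p = 0.462). It was at 174 and 173 CPM in the HC controls and at 173, 200 and 164 CPM in HC. Controls fell within the HC range, and the log2 fold change was 0.05 (SE 0.12, edgeR adjusted p = 0.895), while the keratins of the same libraries were higher. In KC it was at 3.26 and 1.12 CPM and in KMC at 3.17 and 15.9 CPM. KMC 1 lay between the KC libraries and KMC 2 far above them. On the log2 scale the difference was 2.16 (SE 0.82, edgeR adjusted p = 0.164, 0.0331 from DESeq2), and 0.58 without KMC 2.

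Muc1, a transmembrane mucin of the apical surface, was at 466, 385 and 547 CPM in the MC controls and at 414, 328 and 362 CPM in MC. MC 1 lay within the control range, and the log2 fold change was -0.34 (SE 0.18, edgeR adjusted p = 0.407). It was at 558 and 526 CPM in the HC controls and at 1109, 1361 and 1048 CPM in HC, with every HC library far above both controls. This 2.16-fold difference (log2 1.11, SE 0.18) had the smallest adjusted p of any member in HC, 0.0576 from edgeR. DESeq2 called it with an adjusted p of 2.00e-09. In KC it was at 279 and 162 CPM and in KMC at 115 and 52.5 CPM, both lower. The log2 fold change of -1.40 (SE 0.57, edgeR adjusted p = 0.181, 0.0322 from DESeq2) depended on the scaling, and by total counts alone it was -0.02. By total counts Muc1 was at 136 and 124 CPM in KC and at 143 and 114 CPM in KMC, which overlap.

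Spp1 encodes osteopontin, a secreted phosphoprotein of ducts and of activated macrophages, and in bulk tissue fewer cells of a type and less RNA per cell cannot be told apart. It was at 641, 1090 and 288 CPM in the MC controls and at 679, 1296 and 1209 CPM in MC. The 3 controls differed by 3.78 times, the widest spread of any member within a group of controls, and MC 1 lay inside it. Expressed as log2, the difference was 0.66 (SE 0.47, edgeR adjusted p = 0.503). It was at 2127 and 2407 CPM in the HC controls and at 1385, 1530 and 2055 CPM in HC, all lower. The log2 fold change there was -0.45 (SE 0.23, edgeR adjusted p = 0.394). It was at 118 and 172 CPM in KC and at 347 and 521 CPM in KMC, both higher. The log2 fold change was 1.58 (SE 0.56, edgeR adjusted p = 0.150, 0.00475 from DESeq2).

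Summed macrophage genes lay on the same side of their controls as Spp1 on average in all 3 comparisons. The 12 macrophage genes, of which 11 are listed for MC, summed by total counts to 375 to 1560 CPM in the MC controls and 1030 to 1864 CPM in MC. They summed to 2656 to 4316 CPM in the HC controls and 1644 to 2469 CPM in HC, and to 167 to 231 CPM in KC and 1178 to 6392 CPM in KMC. Adgre1, the gene of F4/80, was at 10.1 and 10.1 CPM in KC and at 34.6 and 61.6 CPM in KMC. Spp1 per count of Adgre1 was 11.7 and 17.1 in KC and 8.46 and 10 in KMC, lower in both. In the MC experiment that ratio was 13.1 to 24.4 in controls and 13.3 to 19.7 in MC, and in the HC experiment 18.6 to 36.3 in controls and 26.8 to 42.4 in HC. The part of macrophages in the Spp1 levels was not tested.

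**Figure D3:**
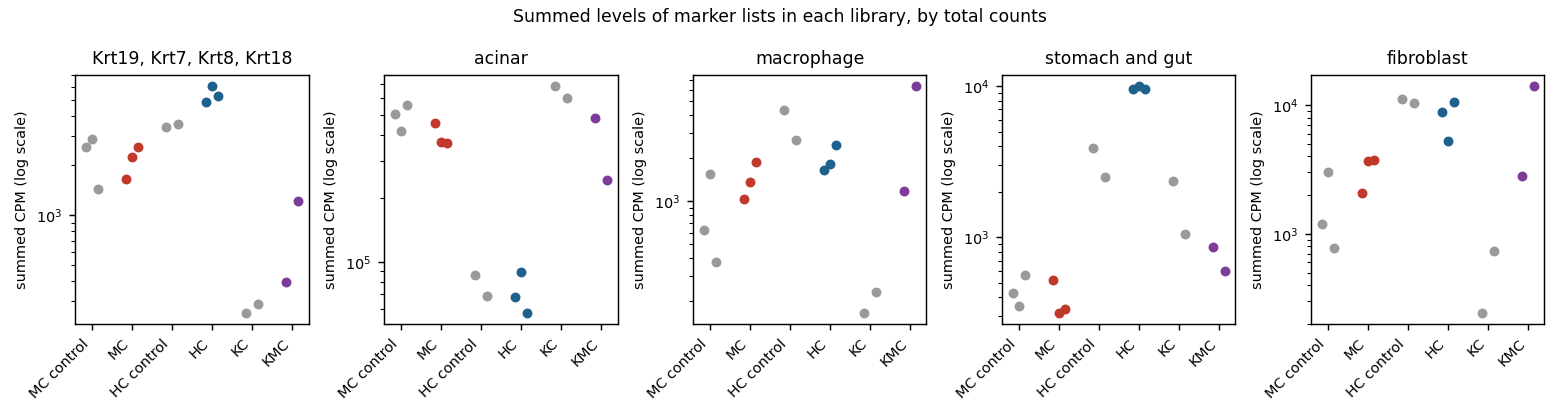
Summed CPM, by total counts and on log axes, of the 4 keratin members and of marker lists of other cell types. Points are libraries and grey points control groups. All 3 HC libraries lie at or above 9617 CPM for the stomach and gut list and their controls at or below 3875 CPM, and KMC 2 is the highest KMC or KC library for keratins, macrophage and fibroblast genes. The MC experiment lists 6 of the 12 stomach and gut genes and 11 of the 12 macrophage genes, so its sums are over fewer genes.

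Genes of stomach and gut epithelium were higher in the HC libraries, as the keratins and Muc1 were. The 12 genes of that list summed to 3875 and 2485 CPM in the HC controls and to 9625, 10032 and 9617 CPM in HC. Of its 10 genes tested, 9 had an unadjusted p under 0.05 and were higher with no overlap. Of all genes, 8.39% had such a p and were higher, and 17.5% were higher with no overlap. From the list 2 were called, against 0.565% of all genes. This list was chosen with earlier results of these data known. Gkn1, a gene of stomach pit cells, was at 680 and 321 CPM in the controls and at 2886, 2334 and 2886 CPM in HC. The part of such epithelium in the higher Krt19, Krt8, Krt18 and Muc1 was not tested. In KC the list summed to 2363 and 1044 CPM and in KMC to 867 and 597 CPM. Tff2 alone made 2354 and 1023 CPM of this in KC and 831 and 505 CPM in KMC. Of the 8 genes of the list tested in KMC, 5 had a log2 fold change above 0 (51.3% of all genes). Without overlap, 4 were higher (34.4% of all genes) and 2 lower (30.9%).

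Ratios to Epcam, an epithelial surface gene, do not depend on the scaling either. Krt19 per count of Epcam was 2.28, 1.98 and 2.05 in the MC controls and 1.83, 1.31 and 1.41 in MC, lower in all 3. Krt8 per Epcam was 9.46, 9.34 and 11 in these controls and 8.50, 7.04 and 7.72 in MC, and Krt18 was 12.7, 10.4 and 11.9 against 10.1, 7.59 and 7.88. On this measure these 3 keratins did not overlap between MC and controls. Krt7 per Epcam did, at 0.235, 0.213 and 0.164 in controls and 0.158, 0.153 and 0.195 in MC. Sox9, Onecut1, Cftr, Muc1 and Spp1 per Epcam overlapped too. For ratios to Epcam, the share of all genes without overlap was not computed. Such ratios rest on the gene chosen. Epcam averaged 105 CPM in controls and 108 CPM in MC, and Cdh1, another epithelial gene, 332 and 274 CPM. In the HC experiment Krt19 per Epcam was 2.04 and 1.74 in controls and 2.92, 3.83 and 3.35 in HC, and Muc1 per Epcam was 1.19 and 1.02 against 2.17, 2.43 and 1.97. Both were higher in every HC library. In KMC, Krt19 per Epcam was 0.383 and 0.681 and overlapped KC at 0.631 and 0.517. Krt18 per Epcam was 2.30 and 1.86 and lay below KC at 5.78 and 4.2. Krt8 (1.93 and 2.21 against 4.61 and 3.06), Sox9 (0.497 and 0.315 against 0.753 and 0.589) and Muc1 (1.76 and 0.503 against 5.92 and 3.40) also lay below KC. Krt7 and Spp1 per Epcam lay above KC in both KMC libraries, and Onecut1 and Cftr overlapped. Epcam itself was higher in KMC, at 65.4 and 104 CPM against 47.1 and 47.8 CPM in KC.

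**Figure D4:**
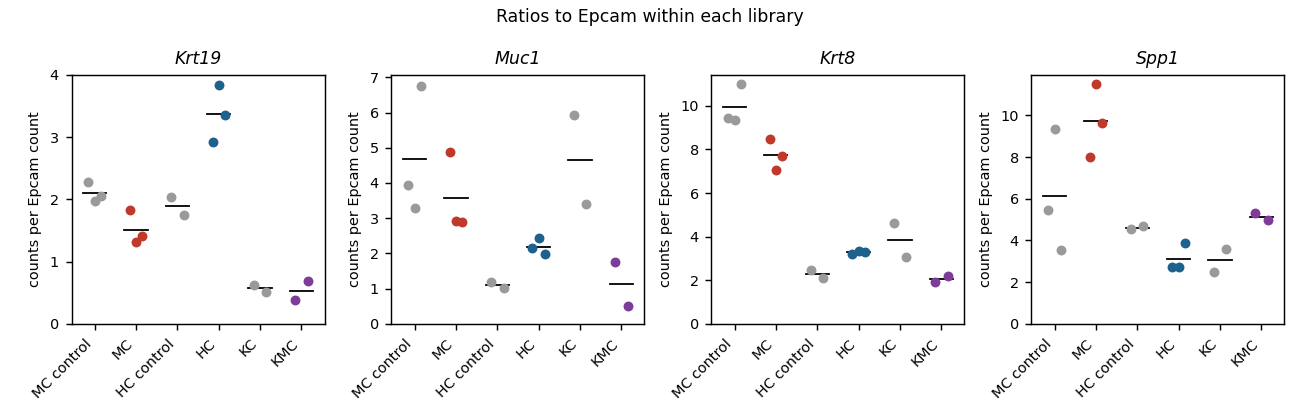
Counts of Krt19, Muc1, Krt8 and Spp1 per count of Epcam in each library, with axes from 0. Points are libraries, black lines group means and grey points control groups. Krt19 per Epcam is lower in all 3 MC libraries (1.31 to 1.83) than in their controls (1.98 to 2.28) and higher in all 3 HC libraries (2.92 to 3.83) than in theirs (1.74 and 2.04).

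The changes in MC and in HC were tested against each other over the 11 libraries of both experiments. For Krt19 the change in MC minus that in the libraries labelled HC was -1.45 on the log2 scale (SE 0.29, interaction test in edgeR, adjusted p = 0.0365). For Muc1 the log2 difference was -1.47 (SE 0.27, edgeR adjusted p = 0.0309). The sign and size of both rest on the labels of the HC libraries. Map4k1 goes against these labels, but whether it counts the transgene was not tested. Krt19 and Muc1 were the 2 of 9 members called, against 2.18% of 14884 genes, and 4 had an unadjusted p under 0.05, against 20.8%. Krt8 had a log2 difference of -0.97 (SE 0.25, edgeR adjusted p = 0.0633) and Krt18 of -0.90 (SE 0.28, adjusted p = 0.109), and DESeq2 called Krt8, Krt19 and Muc1, as it called 6.75% of all genes. Krt7, Sox9, Onecut1, Cftr and Spp1 had adjusted p of 0.309 to 0.784 from edgeR. Both calls were lost without MC control 1, MC 2, MC 3, HC 2, HC 3 or either HC control, and that of Muc1 without MC control 3 (adjusted p = 0.0508 from edgeR), although the log2 differences stayed between -1.61 and -1.29 for Krt19 and between -1.59 and -1.32 for Muc1. By total counts alone 0 members were called. The experiments also differ in age, library kit, share of acinar counts and label of the controls (B control in MC, WT in HC). These cannot be told apart from the transgene. Xist is not listed for the MC libraries, so their sex was not checked with it.

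The changes in KMC against KC and in MC against its controls were compared in the same way over 10 libraries. For Krt7 the KMC effect exceeded the MC effect by 2.61 on the log2 scale (SE 0.81, edgeR adjusted p = 0.298), and for Krt19 by 1.24 (SE 0.53, adjusted p = 0.300). In this comparison 0 members were called, as were 0% of 14464 genes, with 2 members at an unadjusted p under 0.05 (16.2% of all genes) and 0 called by DESeq2 (0.512% of all genes). Without KMC 1, 1 member, Krt7, was called, but KMC was then 1 library that was assumed to vary like the other groups.

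Values between KC and KMC depended on the scaling. Acinar genes took 68.5 and 59.8% of counts in KC and 48.4 and 24.6% in KMC, and by total counts the median of all genes was at 1.47 on the log2 scale. The 9 members together took 0.0471 and 0.0572% of counts in KC and 0.102 and 0.258% in KMC. By total counts Krt7, Krt19, Cftr and Spp1 were called in KMC, with log2 fold changes of 4.13, 2.47, 3.98 and 3.05, which is 2.66, 1.0, 2.51 and 1.58 above the median of all genes. On that scale 30% of all genes were called. Krt8, at 1.60, was near that median, and Krt18, at 1.09, below it. Krt7 was higher under all 13 alternatives run, at 0.85 to 4.13, and so were Spp1, at 1.27 to 3.05, and Cftr, at 0.58 to 3.98. Muc1 was lower under all 13, at -2.08 to -0.015.

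**Figure D5:**
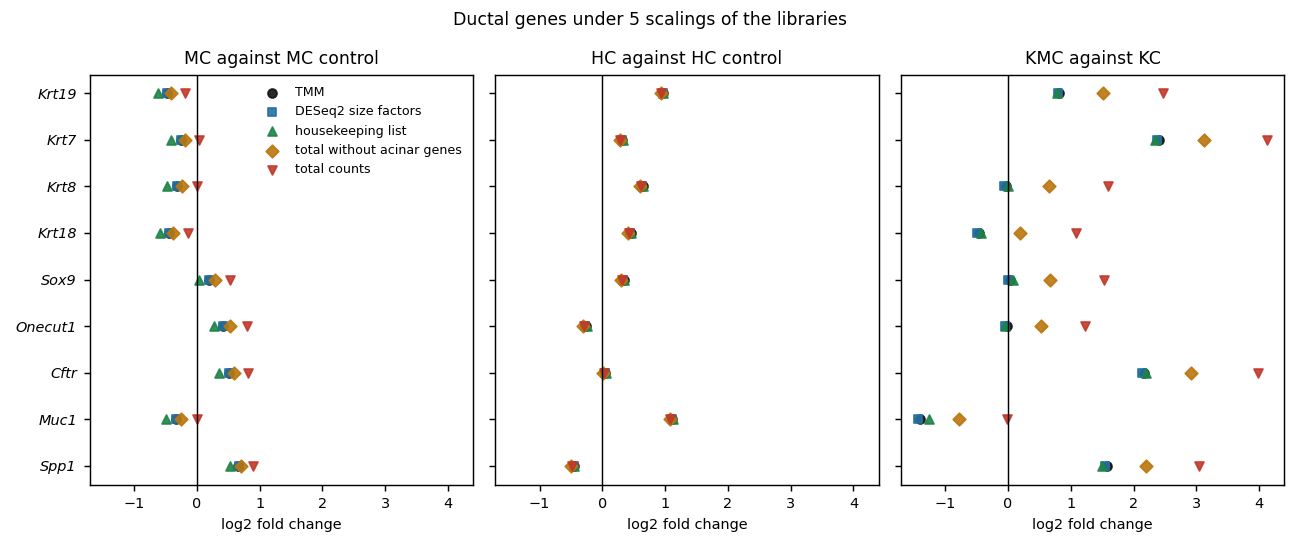
Log2 fold changes of the 9 genes under 5 scalings of the libraries, 1 panel per comparison, all from edgeR. Symbols mark the scaling. In HC the symbols coincide, whereas in KMC total counts move every gene to the right, Krt8 from -0.03 to 1.60.

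Other duct genes were read from 4 lists. Of 10 further duct transcription factors, 0 were called in MC (0% of all genes), 1 in HC (0.565%) and 0 in KMC (0.0191%). The one called in HC was Elf3, an epithelial Ets factor, at 116 CPM on average in controls and 247 CPM in HC (log2 1.09, SE 0.16, adjusted p = 0.0476 from edgeR). In MC, Hes1, a Notch target, had the smallest p of that list, at 12.6 CPM in controls and 22.8 CPM in MC (log2 0.85, SE 0.22, adjusted p = 0.170 from edgeR). In KMC it was Onecut2, a paralogue of Onecut1, at 0.585 CPM in KC and 14.3 CPM in KMC (log2 4.50, SE 1.0, adjusted p = 0.0822 from edgeR), while Onecut1 was at a log2 value of -0.02. Ehf and Prox1 in MC, Pdx1 and Onecut2 in HC, and Glis3 and Foxa2 in KMC had the next smallest p, with log2 fold changes of 0.71, 0.52, 0.48, 0.52, 0.82 and -0.85.

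Of 12 duct transport genes, 12 were tested in HC and 11 each in MC and KMC. Of these, 0 were called in MC (0% of all genes), in HC (0.565%) or in KMC (0.0191%). Car2, a carbonic anhydrase that supplies bicarbonate, was at 325 CPM in the HC controls and 850 CPM in HC (log2 1.39, SE 0.23, adjusted p = 0.0596 from edgeR), and the chloride exchanger gene Slc26a3 was at 0.716 and 5.24 CPM (log2 2.86, adjusted p = 0.0664). The water channel gene Aqp5 had a log2 fold change of 1.57 in MC and -0.85 in HC, with adjusted p of 0.328 and 0.232 from edgeR. In KMC the potassium channel gene Kcnn4, the bicarbonate cotransporter gene Slc4a4 and Car2 had log2 fold changes of 2.00, 1.78 and 1.41, with adjusted p of 0.0796, 0.0938 and 0.110 from edgeR. All 3 were higher in both KMC libraries than in KC, as 34.4% of all genes were.

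Of 20 duct surface and secreted genes, 0 were called in MC (0% of all genes), 1 in HC (0.565%) and 0 in KMC (0.0191%). Tspan8, a tetraspanin of epithelial cells, was called in HC, at 212 CPM in controls and 438 CPM in HC (log2 1.05, SE 0.14, adjusted p = 0.0449 from edgeR). Mmp7, a matrix metalloproteinase of metaplastic ducts, was at 0.699 CPM in KC and 12.3 CPM in KMC (log2 4.23, SE 0.74, adjusted p = 0.0796 from edgeR, 3.27e-07 from DESeq2). Lgals3 and Tspan8 followed in KMC with log2 fold changes of 2.49 and 2.56. The immune checkpoint ligand gene Vtcn1 had the smallest p of this list in MC, at 6.27 CPM in controls and 17.6 CPM in MC (log2 1.48, SE 0.52, adjusted p = 0.270 from edgeR). At an unadjusted p under 0.05, 2 genes of this list were higher and 1 lower in MC (9.2% and 5.45% of all genes), 8 higher and 1 lower in HC (8.39% and 7.47%) and 9 higher and 1 lower in KMC (16.1% and 9.48%).

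Of the 12 other keratins, 4 were tested in MC, 7 in HC and 5 in KMC. Krt20, a keratin of gut and stomach surface cells that also stands in the gut list, was called in HC, at 192 CPM in controls and 568 CPM in HC (log2 1.57, SE 0.22, adjusted p = 0.0449 from edgeR). It was at 1.36 and 2.75 CPM in KC and at 3.61 and 18.2 CPM in KMC (log2 2.39, SE 0.76, adjusted p = 0.132 from edgeR). In MC its log2 fold change was 0.32 (SE 0.64, edgeR adjusted p = 0.815). The 7 keratins of this list tested in HC had no common direction. Of them 3, Krt20 included, were above 0, and the median log2 fold change of the 7 was -0.15.

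Levels across the 6 groups, by total counts and with no test because the experiments were tabulated apart, were highest in HC for 7 of the 9 genes and in HC controls for Onecut1 and Spp1. Krt19 ran from 1794 ± 322 CPM (SD, n = 3) in HC through 938 ± 18.0 (n = 2) in HC controls, 205 ± 76.9 (n = 3) in MC controls, 181 ± 33.3 (n = 3) in MC and 92.6 ± 86.8 (n = 2) in KMC to 16.7 ± 3.12 (n = 2) in KC. MC, its controls and KMC were neighbours whose libraries overlap. Krt18 differed less, from 1286 ± 158 CPM in HC to 143 ± 14.4 CPM in KC, and the means of both groups of the MC experiment stood above that of the HC controls, with overlap. Onecut1 ran from 11.1 ± 1.85 CPM in HC controls to 3.60 ± 2.46 CPM in KC, with overlap between all neighbours but KMC and MC controls. Spp1 was highest in HC controls, at 2298 ± 268 CPM, above HC at 1643 ± 347 CPM with no overlap. Cftr spanned the widest range, from 178 ± 18.6 CPM in HC to 1.22 ± 0.519 CPM in KC.

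Levels of different genes were compared per kb of principal transcript. In the MC controls Krt18 led, at 781 CPM per kb, followed by Krt8 at 484 and Spp1 at 443. In MC Spp1 led at 821 CPM per kb, before Krt18 at 710. In HC Krt19 led at 1138 CPM per kb, whereas its controls had Spp1 first, at 1525. In KC Krt18 was first at 99.4 CPM per kb, and in KMC Spp1 at 518.

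Genes outside the 9 were ranked by how alike a member they were. Pearson's r of log2(CPM + 0.5), centred within each experiment over the 15 libraries, was computed for 12419 genes, which share depth and scaling with the member. It is a description with no p, because the most alike of so many genes are picked. Krt19 was most like Mapk3 (r = 0.92), Card19 (0.91) and Por (0.91). Spp1 was most like Vangl2, Trim35 and Icam1 (r = 0.96 for each), and Hmcn2 (0.87) and Arhgef12 (0.86) were among the 3 most like Onecut1. Sox9 had looser neighbours, with 9930021J03Rik at 0.86, Rarres2 at 0.76 and Tm7sf2 at 0.74.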

How the data were processed

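RNA-Seq of mouse pancreas was analysed in 15 libraries. Raw counts per gene were deposited in 3 tables, after alignment with STAR to GRCm38 by the authors. Per the labels, STAR 2.6.1a, HTSeq 0.6.1, bcl2fastq 2.17.14 and DESeq2 were used, and kits differed between the MC and the other libraries. Why the MC table lists fewer genes is not given in the sources used here. The authors' own fold changes and p-values were not used. Replicates were pools of mice and differed by more than counting error.

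Genes were filtered (filterByExpr), scaled by TMM and tested in edgeR 4.0.16 (R 4.3.3, glmQLFit, glmQLFTest) within each pair of groups, or as an interaction over both pairs. A standard error is the absolute log2 difference over the root of its F value. Alternatives were DESeq2 1.42.0, other scalings and filters, a replicate block, 1 fit over all libraries, leaving out each library and, chosen after seeing the data, edgeR's newer quasi-likelihood method.

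Members and lists were chosen with earlier results of these data known. Named are the members, up to 3 genes per list of other duct genes and comparison with the smallest p and a mean of at least 1 CPM, marker genes as levels, and the 3 genes most alike 4 of the members. Map4k1, Xist and Epcam were added as checks. Positions and transcript lengths are from GENCODE M21, promoters from RefSeq. An allele of the KC and KMC mice and a gene most alike Onecut1 are not reported here.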

Additional observations from a re-analysis of the deposited data

Results flagged for a closer look

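The MC and HC effects, each against its own controls, differed for 4 named genes. The test was the edgeR interaction test over 11 libraries with Benjamini-Hochberg adjustment. The MC effect minus the HC effect was -1.45 on the log2 scale for Krt19 (adjusted p = 0.0365) and -1.47 for Muc1 (adjusted p = 0.0309). It was -1.20 for Elf3 (adjusted p = 0.0274) and -0.74 for Dsp, the desmoplakin gene (adjusted p = 0.0389), which is under the size required for a call. Elf3 and Dsp had been named for a small p in a single comparison whose libraries this test uses again. The count of 4 is thus not independent of that choice. The share of all genes at such an adjusted p without the size rule is not given here. Over the alternatives the adjusted p ran from 5.43e-05 to 0.242 for Krt19 and from 5.88e-06 to 0.146 for Muc1. Leaving out some single libraries lost both of these calls, as given above. The sign and size of all 4 differences rest on the labels of the HC libraries. Map4k1 goes against these labels, but whether it counts the transgene was not tested. Genes of stomach and gut epithelium were higher in HC than in its controls, and the part they have in these differences was not tested.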

How the results depend on the processing

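Over all genes edgeR called 0 in MC, 104 in HC, 3 in KMC, 325 for the difference of MC and HC and 0 for that of KMC and MC, and DESeq2 called 453, 468, 2159, 1005 and 74. In MC 0 members were called under every alternative run. In HC, 1 member was called by DESeq2, with the housekeeping list or with no filter on low counts (Muc1 each time), and 0 to 2 without 1 library, the 2 being Krt19 and Muc1 without HC 1. In KMC, 4 members were called by DESeq2, by library size alone and in 1 fit over all 15 libraries, 3 by library size without acinar genes, 1 with the housekeeping list, and 0 to 2 without 1 library (2, Krt7 and Cftr, without KMC 1, where KMC 2 alone is assumed to vary like KC). For the difference of MC and HC, 2 members were called, against 0 by library size alone, 1 by library size without acinar genes and 0 to 2 without 1 library. For the difference of KMC and MC it was 0 to 1 without 1 library. The replicate block changed the count only in KMC, to 2 (Krt7 and Muc1). The replicate numbers are not stated to pair the libraries. Deviations of same-numbered libraries correlated at -0.37 to 0.31. This cannot decide on pairing, as the deviations within a group of 2 libraries mirror each other.

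Signs turned in these cases. By library size alone, log2 fold changes were 0.038 for Krt7 and 0.0034 for Muc1 in MC, 1.60 for Krt8, 1.09 for Krt18 and 1.23 for Onecut1 in KMC, 0.25 for Sox9 in the difference of MC and HC, and 1.26 for Krt18, 1.03 for Sox9, 0.46 for Onecut1 and 0.032 for Muc1 in that of KMC and MC. Without acinar genes in the total they were 0.66 for Krt8, 0.20 for Krt18 and 0.52 for Onecut1 in KMC, 0.0082 for Sox9 in the difference of MC and HC, and 0.56 for Krt18 and 0.38 for Sox9 in that of KMC and MC. The housekeeping list gave 0.17 for Krt18 and 0.038 for Sox9 in the last. With no filter Krt8 was at 0.075 and Onecut1 at 0.056 in KMC, and 1 fit over all libraries put Sox9 at -0.014.

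Without 1 library at a time, ranges that crossed 0 were -0.011 to 0.36 for Sox9 in MC and -0.036 to 0.092 for Cftr in HC. In KMC they were -0.10 to 1.38 for Krt19, -0.50 to 0.34 for Krt8, -0.12 to 0.20 for Sox9 and -0.54 to 0.50 for Onecut1. They were -0.36 to 0.0063 for Sox9 in the difference of MC and HC, and -0.20 to 0.60 for Krt8, -0.26 to 0.15 for Krt18 and -1.01 to 0.035 for Onecut1 in that of KMC and MC. The cause of these shifts was not tested.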
